A study of Homo sapiens with 22 samples.

Results

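In PC3 prostate cancer cells, 8339 of the 24038 FOXA2-bound regions (34.7%) were also bound by the AP-1 subunit JUN and lay in accessible chromatin. They overlapped no called region of the AP-1 subunit FOSL1 and no FOXA2 region of NCI-H660 cells. These regions are called the members here. They were selected on measured values: each was a FOXA2 region of vehicle-treated PC3 cells that overlapped, by at least 1 bp, a JUN region of PC3 cells given a control siRNA (siNC) and a PC3 ATAC-seq region, and overlapped no PC3 siNC FOSL1 region and no FOXA2 region of vehicle-treated NCI-H660 cells. What that choice used is therefore given only as a description.

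FOXA2 is a forkhead pioneer factor, a protein that can bind its DNA motif in compacted chromatin and open it for other factors. It is known from endoderm development and from prostate cancers that have lost androgen receptor signalling. AP-1 is a pair of leucine zipper proteins, usually a JUN protein with a FOS or ATF protein, which binds a short palindromic motif at enhancers in response to growth and stress signals. JUN can pair with itself or with several partners, and FOSL1 (FRA-1) is one of them. LSD1 (KDM1A) removes methyl groups from lysines of histones and other proteins.

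ChIP-seq, which sequences the DNA recovered with an antibody, and ATAC-seq, which sequences DNA that a transposase can reach, were deposited as 22 lists of enriched regions from 3 human prostate cancer lines. PC3 was derived from a bone metastasis and lacks the androgen receptor, NCI-H660 is neuroendocrine, and LNCaP expresses the androgen receptor. FOXA2 was profiled in PC3 under vehicle, ORY-1001 at 10 µM for 4 h or C12 at 0.5 µM for 4 h, both inhibitors of LSD1, and in NCI-H660 under vehicle or ORY-1001 at the same dose and time. PC3 and NCI-H660 cells given siNC or a FOXA2-directed siRNA (siFOXA2) were profiled for JUN, and the PC3 cells for FOSL1 as well. LNCaP JUN was profiled after siNC or an siRNA against FOXA1, in cells that overexpress FOXA2 (FOXA2OE, also profiled for FOXA2) and in cells titled FOXA2K265R, whose cell line label reads FOXA2OE. H3K27ac and ATAC-seq in PC3, H3K4me2 and ATAC-seq in NCI-H660, and 2 further vehicle PC3 FOXA2 ChIPs with no antibody label (the other FOXA2 ChIPs) completed the set. Of the 21 groups, 20 held 1 list each, so no difference between conditions had a replicate check and no p-value was computed. The intervals below are Wilson 95% intervals for a share and Newcombe 95% intervals for a difference of shares, and they cover counting error only.

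The read depth behind the lists was unknown. The lists held between 1538 regions (PC3 FOSL1 under siFOXA2) and 210960 regions (PC3 ATAC-seq), and 20 of them carried a score, taken as the −log10 q-value of the peak caller times 10 and used to rank regions within a list. The lists that define the members came from 4 different processing folders, as the region identifiers show, whereas each inhibitor or siRNA contrast in PC3 lay within 1 folder. Markers did not separate the lines by accessibility: promoters of the mesenchymal genes VIM, CD44, FN1 and AXL were accessible in both lines (4 of 4), and those of neuroendocrine genes in 4 of 5 cases in PC3 and 5 of 5 in NCI-H660, with only CHGA, the secretory granule protein chromogranin A, inaccessible in PC3. Only 2 of the members were places overlapped in at least 17 of the 22 lists, against 403 of all 24038 FOXA2 regions (1.68%). The choice itself kept members out of the siNC FOSL1 list of PC3 and the vehicle FOXA2 list of NCI-H660, which lowers this count.

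The motifs of both factors can be read in the members themselves. The forkhead motif was searched as TGTTTAC or TGTTTAT or TGTTTGC or TGTTTGT or TATTTAC or TATTTAT or TATTTGC or TATTTGT, and the AP-1 motif as TGACTCA, each on both strands (TGAGTCA is the AP-1 motif on the other strand), within 100 bp on either side of the centre of the FOXA2 region. Neither motif contains the other. In members with both, the most frequent spacing with the forkhead motif first was a gap of 4 bp, which 55 members held. The 6 with the highest FOXA2 scores are shown because they put both motifs side by side. Capitals mark the forkhead and then the AP-1 motif, and each line is read 5′ to 3′ on the strand given, from the hg19-equivalent GRCh37 assembly.
PLD5 intron, chr1:242389200-242389237, minus: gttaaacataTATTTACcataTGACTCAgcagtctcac
Near DNASE1L3, chr3:58167029-58167066, minus: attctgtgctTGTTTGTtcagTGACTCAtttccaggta
Near CADM2, chr3:84367571-84367608, minus: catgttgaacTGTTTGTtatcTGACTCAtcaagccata
Near SBK3, chr19:56060833-56060870, plus: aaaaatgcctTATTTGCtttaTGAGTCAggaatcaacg
Near OSR1, chr2:19769198-19769235, minus: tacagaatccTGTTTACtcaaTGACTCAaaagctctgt
Near TMEM26, chr10:63158669-63158706, minus: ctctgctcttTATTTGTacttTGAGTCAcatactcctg

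A pair of whole windows shows opposite outcomes at members that hold both motifs. The first, an intergenic member 17695 bp from VDAC2, a mitochondrial outer membrane channel, kept FOXA2 under both inhibitors and JUN after siFOXA2. The second, in an intron of COBLL1, lost all of these. Both windows run 100 bp to either side of the FOXA2 centre on the plus strand, with the forkhead and AP-1 motifs in capitals (on the minus strand in the second window, so that its forkhead letters appear reversed and complemented).
Kept, near VDAC2, chr10:76951907-76952107: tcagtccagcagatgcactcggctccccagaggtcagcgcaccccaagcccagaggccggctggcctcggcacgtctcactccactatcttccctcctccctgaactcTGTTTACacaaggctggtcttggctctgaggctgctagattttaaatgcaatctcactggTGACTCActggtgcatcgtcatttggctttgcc
Lost, in COBLL1, chr2:165614529-165614729: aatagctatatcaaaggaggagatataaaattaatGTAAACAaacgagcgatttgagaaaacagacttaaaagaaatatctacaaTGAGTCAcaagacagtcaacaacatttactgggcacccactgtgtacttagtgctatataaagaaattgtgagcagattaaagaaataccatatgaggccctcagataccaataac

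The member near VDAC2 scored 2390 for FOXA2 under vehicle, 2379 under ORY-1001 and 1406 under C12, and its JUN score was 626 under siNC and 120 under siFOXA2. The member in COBLL1 scored 1530 for vehicle FOXA2 and 110 for siNC JUN, and it had no region in the 3 treated lists. Its scores in the other FOXA2 ChIPs were 2958 and 2559, above those of the VDAC2 member (1781 and 1375). The vehicle score was thus higher at the kept member, and the other ChIPs' scores were higher at the lost one.

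The 6 members with the printed motif pair differed in what the inhibitors left of them. The PLD5 member went from a FOXA2 score of 1387 under vehicle to 288 under ORY-1001 and 311 under C12, and the OSR1 member from 927 to 400 and 190. The DNASE1L3 member went from 1253 to 613 and 329, and the CADM2 member from 1097 to 734 and 391. The SBK3 member, the only one of the 6 with an H3K4me2 region in NCI-H660, went from 972 to 174 and 196, and its JUN score of 36 was the lowest of the 6. The TMEM26 member went from 840 to 52 under ORY-1001 and had no region under C12. None of the 6 had a JUN region after siFOXA2, with siNC JUN scores of 36 to 356, and none had JUN in NCI-H660 or LNCaP. Scores of different libraries depend on their depth, so these values are given as recorded and not as a measure of loss.

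By the values used in the choice, the members had a median FOXA2 score of 197 (range 13 to 4245) and a median JUN score of 161 (17 to 2262). Their median ATAC score was 1003 and their median length 353 bp. Of the 10652 FOXA2 regions that overlapped JUN, 10405 were accessible, 8976 of these carried no FOSL1 region, and 8339 remained without those of NCI-H660. Members made up 43.7% of the 19095 accessible PC3-only FOXA2 regions. These also included 773 with both JUN and FOSL1 (called FOSL1-bound regions) and 9932 with neither (called JUN-free regions), and both classes serve as comparisons. JUN-free regions were weaker by score, with a median FOXA2 score of 128 and a median ATAC score of 324. FOSL1-bound regions had medians of 215 for FOXA2, 589 for JUN and 2561 for ATAC.

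The absence of a FOSL1 call followed the JUN score, a description of the same lists. The siNC FOSL1 list held 3843 regions and the siNC JUN list 23890, so a missing call does not show that FOSL1 was absent. Among accessible PC3-only FOXA2 regions with JUN, FOSL1 was called at 2.52% of the lowest decile by JUN score (17 to 65) and at 48.1% of the highest decile (526 to 6009). The overlap of 1 bp was rarely decisive: the median overlap between a member and its JUN region was 282 bp, and only 4 members had 10 bp or less. At the edge were a member in an intron of PTPRM, a receptor tyrosine phosphatase, with an overlap of 1 bp, and an excluded region near AKR1E2 with a gap of 5 bp to JUN. A FOSL1 region lay within 1 kb of 49 members. Across the 8339 members the Spearman correlation was 0.50 between JUN and ATAC scores, 0.19 between FOXA2 and JUN scores and 0.18 between FOXA2 and ATAC scores. These are descriptions over regions of the same libraries.

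To ask how FOXA2 at these regions responded to LSD1 inhibition, members were called kept if they overlapped a FOXA2 region of the treated list and lost otherwise. Under ORY-1001, 45.8% of the members were kept, against 36.8% of all vehicle FOXA2 regions. Under C12, 38.9% were kept, against 29.6% of all. Both shares lay above those of JUN-free regions, with 22.2% (ORY-1001) and 15.4% (C12), and below those of FOSL1-bound regions, at 76.8% and 59.5%. The difference from JUN-free regions was 23.6 percentage points under ORY-1001 (22.3 to 25) and 23.4 under C12 (22.2 to 24.7). The difference from FOSL1-bound regions was -31.0 points under ORY-1001 (-34.1 to -27.7) and -20.6 under C12 (-24.2 to -17.0).

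Score differences between the classes moved with these shares. Among members the kept share ran from 12.8% in the lowest decile of the vehicle FOXA2 score (13 to 52) to 81.9% in the highest (540 and above) under ORY-1001, and from 5.59% to 88.8% under C12. Standardised over the 10 deciles of the score, the excess of members over JUN-free regions was 13.4 points under ORY-1001 and 11.9 under C12. With the ATAC and FOXA2 scores held equal together, in quintiles of each, it was 4.57 and 8.51 points, strata chosen after seeing the data. The shortfall against FOSL1-bound regions changed little at equal FOXA2 score (-29.8 and -18.0 points). The median FOXA2 scores of members and FOSL1-bound regions were close (197 and 215). Their median ATAC scores (1003 and 2561) and JUN scores (161 and 589) differed more and were not held equal for this contrast.

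**Figure D1:**
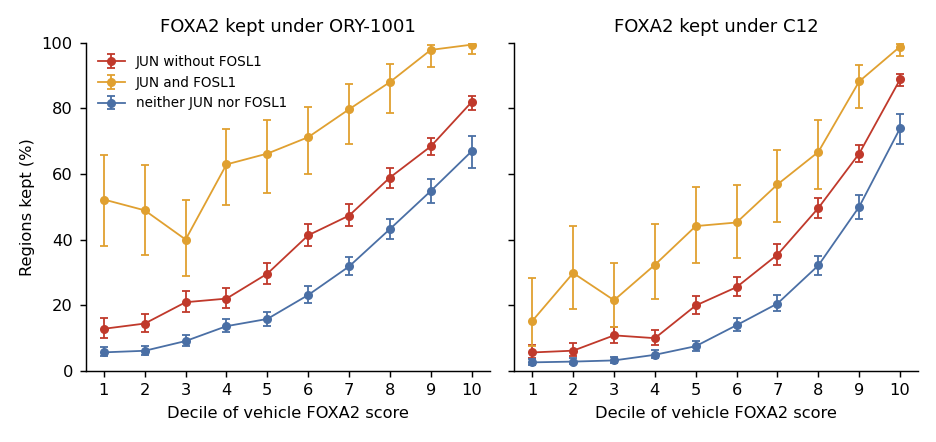
Share of FOXA2 regions kept (%, y axis) under ORY-1001 (left) and C12 (right) by decile of the vehicle FOXA2 score (x axis, 1 lowest). Points are accessible PC3-only FOXA2 regions with JUN and no FOSL1 (red, the members), with both (yellow) or with neither (blue), and bars are Wilson 95% intervals. The members lie between the other classes in every decile and reach 81.9% and 88.8% in the highest.

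The lists under the inhibitors shared many members. Of all members, 2602 (31.2%) were kept under both, 1219 (14.6%) under ORY-1001 alone, 639 (7.66%) under C12 alone, and 3879 (46.5%) under neither. Of all vehicle FOXA2 regions, 24.0% were kept under both, 12.8% under ORY-1001 alone, 5.63% under C12 alone and 57.5% under neither. Doses differed between the compounds, so no comparison of their strength was made. Members kept under both inhibitors carried H3K27ac in 86.5% of cases (85.2 to 87.8%) and a forkhead motif in 79.3% (77.7 to 80.8%). Members lost under both carried H3K27ac in 71.5% (70.0 to 72.9%) and a forkhead motif in 69.5% (68.0 to 70.9%). The AP-1 motif went the other way, at 34.2% of members kept under both (32.4 to 36.0%) and 41.0% of members lost under both (39.4 to 42.5%). None of these shares was compared at equal FOXA2 score. The share of members with H3K27ac was itself 74.9% in the lowest decile of the vehicle FOXA2 score and 85.2% in the highest.

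Few members held JUN after siFOXA2. Of the members, 7.90% (659) overlapped a JUN region under siFOXA2, against 63.0% of FOSL1-bound regions and 8.57% of all FOXA2 regions. No FOXA2 list under siFOXA2 was analysed here, so the knockdown itself was not checked. Counted as JUN regions, 671 of the 8326 at members were kept (8.06%), against 13.4% of the whole siNC JUN list. Where no FOXA2 region had been called the share was close: of the 11598 accessible JUN regions with neither vehicle FOXA2 nor FOSL1, 6.58% were kept. The difference was 1.48 points in favour of the members (0.748 to 2.23), and the order turned at equal JUN score, where the share without FOXA2 was 9.17%. The siFOXA2 list held 4081 JUN regions against 23890 under siNC, and a loss at a member cannot be told apart from a weaker library. FOSL1 regions under siFOXA2, a list of 1538, overlapped 0.156% of the members. They overlapped 0.906% of FOSL1-bound regions and 1.30% of all FOXA2 regions. The members had been chosen without a FOSL1 region in control cells.

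Keeping of JUN moved with the JUN score. Among JUN regions at members, 1.05% were kept in the lowest decile of the siNC JUN score, 17.7% in the ninth and 44.1% in the highest (455 and above; 40.4 to 47.8%). In the highest decile the share was 77.4% where FOSL1 was also called (73.4 to 80.9%) and 45.5% where neither FOXA2 nor FOSL1 was (41.2 to 49.8%). Weighted to the JUN scores of the members, FOSL1-bound JUN regions were kept in 46.7%, although each of their 6 lowest deciles held only 13 to 21 regions. The members with kept JUN had a median JUN score of 425, against 150 for the rest, while their FOXA2 scores were alike (medians of 201 and 196).

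**Figure D2:**
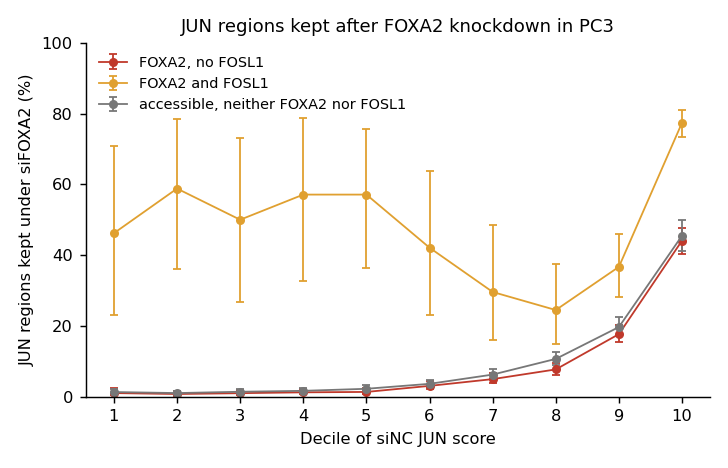
Share of siNC JUN regions of PC3 that overlap a JUN region after siFOXA2 (%, y axis) by decile of the siNC JUN score (x axis, 1 lowest), for JUN regions at the members (red), at FOXA2 regions with FOSL1 (yellow) and at accessible chromatin with neither factor (grey). Bars are Wilson 95% intervals. The red and grey lines run close together up to 44.1% and 45.5% in the highest decile, and the yellow line lies above both.

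The outcomes of both factors went together, without adjustment for score. JUN after siFOXA2 was present at 12.1% of the members that kept FOXA2 under both inhibitors (10.9 to 13.5%), at 9.47% of those that kept it under 1 inhibitor (8.22 to 10.9%), and at 4.31% of those that kept it under neither (3.71 to 4.99%). A region was present in all 3 treated lists (FOXA2 under each inhibitor and JUN under siFOXA2) at 316 members (3.79%) and in none of them at 3712 (44.5%). The shares over all vehicle FOXA2 regions were 5.83% and 56.3%. Split into quartiles by JUN score, members of the lowest quartile (17 to 96) kept FOXA2 under ORY-1001 in 30.3% and under C12 in 26.7%, and members of the highest quartile (269 to 2262) in 62.0% and 52.3%. At equal FOXA2 score the ORY-1001 shares were 35.4% and 56.6%, and the C12 shares 33.2% and 44.9%. JUN after siFOXA2 was present at 0.911% of the lowest and 24.3% of the highest quartile. Both outcomes thus rose with the JUN score, and their pairing was not examined at equal JUN score. The share with H3K27ac was 68.9% in the lowest and 86.8% in the highest quartile.

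The motifs placed the members between the other classes. A forkhead motif was found in 74.0% of members (73.0 to 74.9%), in 83.8% of JUN-free regions and in 52.0% of FOSL1-bound regions, against 77.3% of all FOXA2 regions, 35.3% of windows 2 kb away and 29.8% of all accessible PC3 regions. An AP-1 motif was found in 38.4% of members (37.4 to 39.5%), 20.5% of JUN-free and 55.9% of FOSL1-bound regions. The same windows gave 26.4% for all FOXA2 regions, 3.15% for windows 2 kb away and 16.9% for all accessible PC3 regions. In a window of 250 bp on either side, 50.4% of members held an AP-1 motif of this spelling. In detail, 46.6% held a forkhead motif alone, 27.4% both, 11% an AP-1 motif alone and 15.0% neither. The CRE motif TGACGTCA, which AP-1 dimers with ATF proteins can bind, was found in 5 members (0.0600%) and in 0.238% of all accessible regions.

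Of the other motifs, those of TEAD and RUNX were nearest to their share in accessible chromatin. The TEAD motif GGAATG was present in 15.4% of members and 13.3% of accessible regions, and the RUNX motif TGTGGT in 16.8% and 15.8%. The GATA motif AGATAA was present in 13.9% and 8.20%, and the SOX motif ACAAAG in 22.8% and 15.4%, but JUN-free regions held these in 15.0% and 25.5%. Windows 2 kb away held the GATA motif in 15.6%, above the share of the members, and the SOX motif in 16.0%. The start of the SOX motif (ACAAA) is shared with some forkhead spellings read on the other strand. The ETS motif CCGGAAGT was found in 0.192% and 0.421%, a steroid receptor motif in 3.68% and 2.57%, and a CTCF motif in 0.0600% and 1.08%.

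Each motif sat nearest the centre of its own factor. The FOXA2 and JUN centres were a median of 41 bp apart. In members with both motifs the nearest forkhead motif was a median of 26 bp from the FOXA2 centre and 44 bp from the JUN centre, and the nearest AP-1 motif 37 bp from the FOXA2 centre and 30 bp from the JUN centre. These differences are shorter than the sheared fragments, and they rest on interval midpoints, not on summits. For these medians both motifs were searched only within 100 bp of the FOXA2 centre. That bounds the distances to this centre but not those to the JUN centre.

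**Figure D3:**
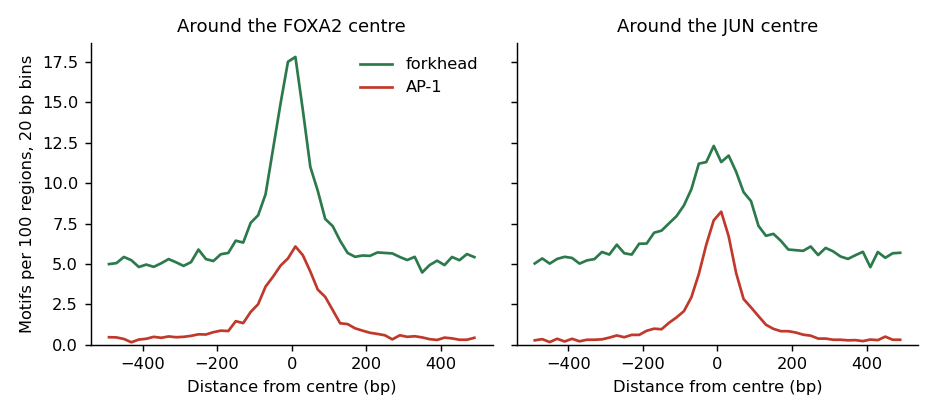
Motifs per 100 members (y axis) in 20 bp bins by distance from the centre of the FOXA2 region (left) or of the overlapping JUN region (right), in bp (x axis), for forkhead (green) and AP-1 (red) motifs. The forkhead peak is higher at the FOXA2 centre than at the JUN centre, and the AP-1 peak is higher at the JUN centre.

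Members with different motifs differed in opposite directions for FOXA2 and JUN, and for FOXA2 this was no longer seen at equal score. Members with a forkhead motif alone kept FOXA2 in 48.8% under ORY-1001 and 44.3% under C12, and members with an AP-1 motif alone in 36.0% and 27.2%. At equal FOXA2 score (medians 236 and 139) the shares became 45.2% against 45.7% under ORY-1001 and 39.8% against 37.9% under C12. JUN after siFOXA2 was present at 5.23% of the members with a forkhead motif alone and at 115 of the 920 with an AP-1 motif alone (10.5 to 14.8%). At equal JUN score these shares were 6.45% and 9.12%. From the lowest to the highest JUN quartile the AP-1 share of members went from 27.7% to 46.5% and the forkhead share from 78.9% to 67.7%.

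Spacing between the motifs was uneven. With the forkhead motif first there were 652 pairs with gaps up to 30 bp, of which 55 had a gap of 4 bp, against 37 at the next most frequent gap of 5 bp and 19 at the median gap. The reverse order gave 714 pairs, of which 53 had a gap of 11 bp, where the median gap held 22. Of those 53 pairs, 30 had flanks alike with another pair at that gap (at least 14 of 20 bases equal), against 2 of the 55 pairs at 4 bp. The same 2 gaps were the most frequent in JUN-free regions, with 37 of 551 pairs at 4 bp (34 at 5 bp) and 52 of 570 pairs at 11 bp (28 of them alike), so neither gap was particular to the members. In the 55 pairs at 4 bp, some of which are printed above, the AP-1 letters were TGACTCA in 33 and TGAGTCA in 22. Their members kept FOXA2 in 50.9% under ORY-1001 (38.1 to 63.6%) and 47.3% under C12 (34.7 to 60.2%). The remaining 2229 members with both motifs kept it in 46.8% and 37.1%, within those intervals.

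**Figure D4:**
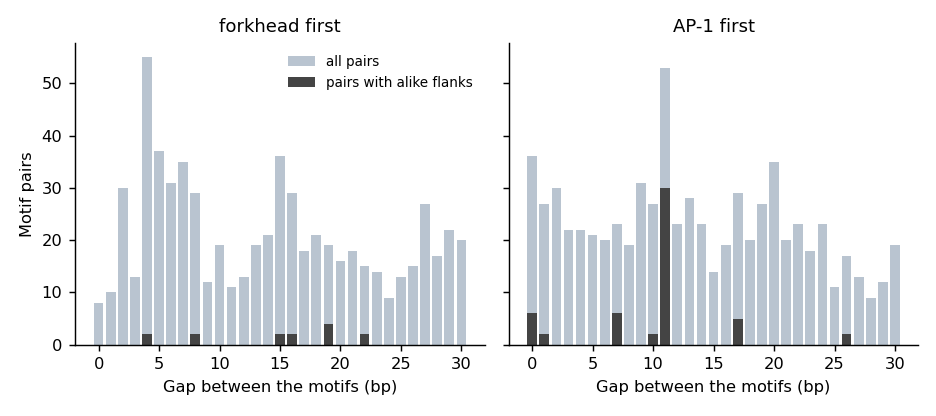
Number of forkhead and AP-1 motif pairs in the members (y axis) by gap between the motifs in bp (x axis), with the forkhead motif first (left) or the AP-1 motif first (right). Dark bars are pairs whose flanks are alike with another pair at the same gap. The highest bars are at 4 bp on the left (55 pairs, 2 of them alike) and 11 bp on the right (53 pairs, 30 alike).

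Enhancer chromatin was common at the members. H3K27ac, a mark of active enhancers and promoters, overlapped 78.1% of members, 47.8% of JUN-free and 90.2% of FOSL1-bound regions, and 58.7% of all FOXA2 regions. The excess over JUN-free regions was 30.2 points (28.9 to 31.5), 25.7 at equal FOXA2 score and 11.2 with FOXA2 and ATAC scores held equal together. The other FOXA2 ChIPs covered 98.3% and 97.1% of the members, slightly more than in either comparison class.

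In NCI-H660 cells 15.6% of members were accessible, 0.356 points from JUN-free regions (interval -0.693 to 1.41). FOSL1-bound regions were accessible there in 29.1%. H3K4me2, a mark of promoters and enhancers, covered 7.06% of members in that line. Over all FOXA2 regions, which include those with NCI-H660 FOXA2 that the choice left out, 22.6% were accessible there, 14.2% carried H3K4me2 and 8.40% carried NCI-H660 JUN under siNC. JUN was called at 276 members in NCI-H660 siNC cells (3.31%) and at 2.58% after siFOXA2, although the second list was longer (59452 regions against 18401). The share over all FOXA2 regions was also lower after siFOXA2, at 5.29%. FOSL1-bound regions went from 18.5% to 12.9%, and JUN-free regions the other way, from 1.41% to 2.01%. Of those 276 members, 90.9% were accessible in NCI-H660, and 64.5% kept FOXA2 in PC3 under ORY-1001 (58.7 to 69.9%), against 45.2% of the rest (44.1 to 46.3%). Under C12 these shares were 45.7% (39.9 to 51.5%) and 38.6% (37.6 to 39.7%). The median PC3 JUN score was 226 at the 276 and 159 at the rest, whereas the median vehicle FOXA2 score was lower at the 276 (162 against 198). The shares were not compared at equal score. The 1300 members accessible in NCI-H660 kept FOXA2 under ORY-1001 in 58.6% (55.9 to 61.3%), against 43.5% of the others (42.3 to 44.6%). Their median vehicle FOXA2 score was 222, against 193 for the others, and these shares were not compared at equal score either. No member had a vehicle FOXA2 region in NCI-H660 by the choice, and 1.25% had one in the ORY-1001 list of that line.

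In LNCaP siNC cells JUN was called at 236 members (2.83%), against 0.574% of JUN-free regions and 12.7% of FOSL1-bound regions. An siRNA against FOXA1 left 0.660% of the members with JUN. In the LNCaP lines with FOXA2, JUN covered 0.420% of members in FOXA2OE and 2.22% in FOXA2K265R cells, and FOXA2 itself covered 0.552% in FOXA2OE cells. All FOXA2 regions had LNCaP JUN in 5.25% under siNC, 4.18% after the FOXA1 siRNA, 1.38% in FOXA2OE and 4.13% in FOXA2K265R cells, and FOXA2OE FOXA2 in 4.87%, each above the share of the members. These lists differ in folder, length and lowest score, which cannot be told apart from the line. Only 59 members had JUN in both NCI-H660 and LNCaP siNC cells, and 94.6% had it in neither. Members with JUN in NCI-H660 kept JUN in PC3 after siFOXA2 in 23.6% of cases, or 18.1% at equal JUN score, against 7.37% without. Members with JUN in LNCaP did so in 25.4%, or 19.8% at equal JUN score, against 7.39% without.

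**Figure D5:**
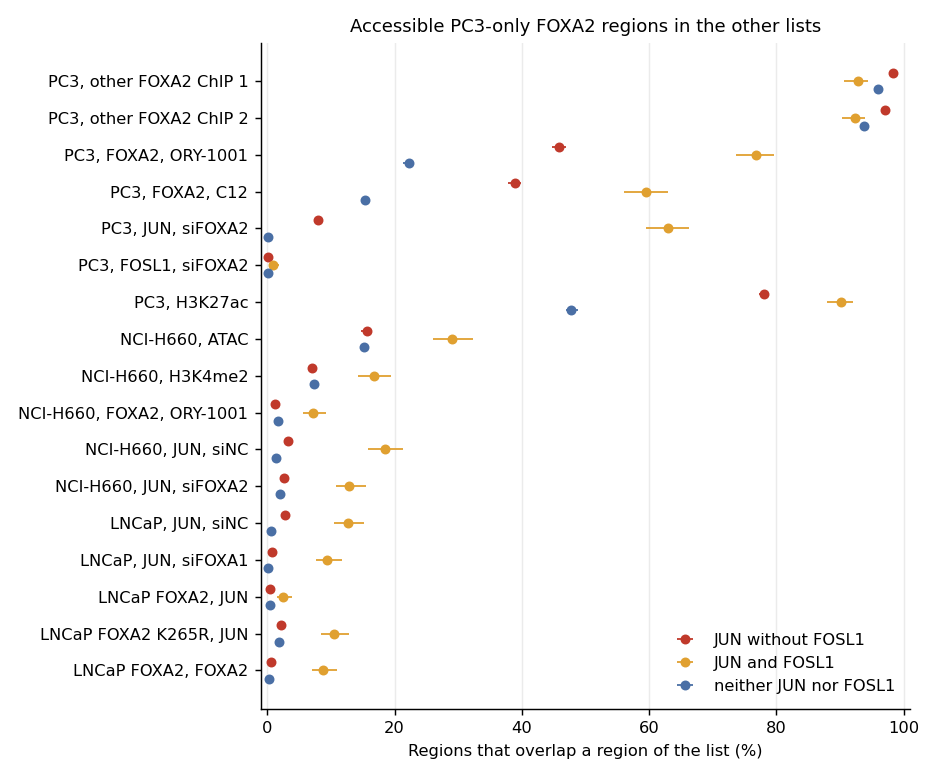
Share of accessible PC3-only FOXA2 regions (%, x axis) that overlap a region of each list not used to choose them (rows), for regions with JUN and no FOSL1 (red, the members), with both (yellow) and with neither (blue). Bars are Wilson 95% intervals. The members lie at 98.3% and 97.1% in the other FOXA2 ChIPs, at 45.8% and 38.9% under the inhibitors, at 7.90% for JUN after siFOXA2 and below 4% for every list of LNCaP.

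With a promoter defined as 1 kb on either side of a protein-coding transcript start, 3% of members (250) were at one, 43.2% were in introns, 50.2% were intergenic, 2.09% touched coding exons and 1.56% untranslated regions. The median distance to a start was 56901 bp. Promoters held 4.02% of JUN-free regions and 3.98% of all FOXA2 regions, whose median distance to a start was 56530 bp, so the members' positions were close to those of FOXA2 regions at large. The 250 promoter members were accessible in NCI-H660 in 36.4% (30.7 to 42.5%), against 14.9% of the others (14.2 to 15.7%), and carried NCI-H660 JUN in 10.8% (7.53 to 15.3%), against 3.08% (2.72 to 3.48%). Their FOXA2 was kept under ORY-1001 in 45.2%, close to the 45.8% of the others. Most members (82.8%) had no other member within 12500 bp. No run held more than 4 members, and 9 runs held 4. Of these, the runs at PXDN, a matrix peroxidase gene, and at MRPS10, a mitochondrial ribosome gene, kept FOXA2 at all 4 members under both inhibitors. The run near GALNT15 kept it at 0 under either, and the remaining 6 runs kept between 1 and 3 under ORY-1001 and between 0 and 3 under C12.

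Of all 19794 protein-coding genes, 22% had a member within 50 kb of a start. The genes with most members were KCNMA1, the pore subunit of a calcium-activated potassium channel, NRP1, a co-receptor for VEGF and semaphorins, the forkhead factor FOXP1 and LTBP1, which binds latent TGF-beta, each with 9. NRP1 kept FOXA2 at 6 of its 9 members under ORY-1001 and at 4 under C12, and JUN at 1 under siFOXA2. Its strongest member, chr10:33580067-33580490 in an intron, scored 2835 for FOXA2 and 705 for JUN and held both motifs. At KCNMA1, 3 members kept JUN after siFOXA2, among them chr10:79146616-79147079 with a JUN score of 1529. All 9 members of KCNMA1 carried H3K27ac, yet only 1 kept FOXA2 under C12. At FOXP1 all 9 members held a forkhead motif, 6 kept FOXA2 under each inhibitor and none kept JUN.

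ANK3, which encodes the membrane adaptor ankyrin-G, had 8 members, of which 5 kept FOXA2 under ORY-1001 and 3 under C12. PRKCH, a protein kinase C, had 7, of which 6 and 5 were kept. MIPOL1, CREB5 (a bZIP factor), ATXN1, the focal adhesion kinase gene PTK2, the focal adhesion protein gene LPP and RASSF8 had 6 each. CREB5 kept JUN after siFOXA2 at 2 of its 6 members, and the other 5 of these genes at none. The length of a gene and its number of starts were not adjusted for.

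Among the lists of 15 genes, those of proteases and the plasminogen system (10 of 15 genes), the YAP and TEAD pathway (9 of 15) and EGFR and MET signalling (9 of 15) most often had a member. Mesenchymal genes and cytokines followed with 7 of 15 each, AP-1 subunits with 6, basal epithelial genes with 4 and the LSD1, CoREST and FOXA genes with 3. Neuroendocrine genes had 1 of 15 and androgen receptor and luminal genes 0 of 15, where the share over all genes was 22%. The lists were chosen with results of these data known, so the counts are descriptions.

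EGFR, a growth factor receptor, had 3 members with vehicle FOXA2 scores of 339 to 584, and all kept FOXA2 under both inhibitors. One of them, chr7:55063684-55064036, also kept JUN, with a siNC JUN score of 337. MET, the receptor of hepatocyte growth factor, had 4 members with vehicle FOXA2 scores of 129 to 219, and none kept FOXA2 under either inhibitor or JUN after siFOXA2. EREG, an EGFR ligand, had 3 members and the adaptor GAB1 had 2, each with 1 kept under ORY-1001. In the YAP and TEAD list the co-activator genes WWTR1 and YAP1 had 4 and 3 members, of which 2 and 0 kept FOXA2 under ORY-1001 and none under C12. The DNA-binding partner TEAD1 and the target gene ANKRD1 had 2 each, and both of those at ANKRD1 were kept under both inhibitors. In the protease list, the neighbours MMP1 and MMP10, secreted collagen- and matrix-degrading enzymes, shared 3 members, of which 1 kept FOXA2 under each inhibitor. The plasminogen activator inhibitor gene SERPINB2 had 3, of which C12 kept 1 and ORY-1001 kept 0, and the protease inhibitor gene SERPINE2 had 1, which kept JUN.

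Of the AP-1 list, MAFK, a small MAF protein, had 2 intronic members with FOXA2 scores of 615 and 787 and JUN scores of 578 and 520. Both held forkhead and AP-1 motifs and kept FOXA2 under both inhibitors, and neither kept JUN. ATF2, MAFF and ATF3, all bZIP genes, had 2, 1 and 1. Of the mesenchymal list, the hyaluronan receptor CD44, the matrix proteins SPARC and TGFBI, and fibronectin (FN1) had 2, 2, 2 and 1, and of these only SPARC had a member that kept JUN. Of the basal list, the laminin chain LAMA3 had 3, the integrin ITGB4 had 2, and the epithelial factor TP63 and the integrin ITGA6 had 1 each. Among cytokines, CXCL5, CXCL8, IL1B and CXCL1 had 2 each. The member at the CXCL8 promoter (chr4:74606156-74606576) scored 1263 for FOXA2, was accessible in NCI-H660 and kept FOXA2 under both inhibitors, but carried no H3K27ac.

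At its own gene FOXA2 had 1 member, chr20:22559157-22559684, with a FOXA2 score of 1099, kept under both inhibitors and without JUN after siFOXA2. FOXA1, its paralogue, had 2 members and KDM1A, which encodes LSD1, had 2, neither of the latter kept under an inhibitor. The single member of the neuroendocrine list lay near INSM1, a zinc-finger factor of neuroendocrine cells, and had a FOXA2 score of 927 and a JUN score of 56. Of 10 genes that the study tested or displayed, 7 had a member. The centrosome protein gene CEP55 had 4, the parathyroid hormone-like hormone gene PTHLH had 2, and CCBE1, the helicase gene ERCC6L, the kinetochore gene NDC80, TP63 and the secreted ligand gene WNT7A had 1 each. The cell-cycle kinase gene CDK1, INCENP (a chromosomal passenger protein) and FOSL1 had none.

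Single members illustrate the combinations. The highest-scoring member kept in all 3 treated lists, chr17:59645886-59646363 near NACA2, scored 4245 for FOXA2 under vehicle, 993 under ORY-1001 and 856 under C12, and 843 for JUN under siNC and 68 under siFOXA2. The highest that kept FOXA2 but lost JUN, chr12:28174653-28175114 near PTHLH, scored 4139, 872 and 993 for FOXA2 and 610 for siNC JUN, and carried no H3K27ac. An intronic member of PC, the pyruvate carboxylase gene, at chr11:66671565-66671952, scored 952 under vehicle and 890 under ORY-1001 with no C12 region, and held an AP-1 but no forkhead motif. It kept JUN, with scores of 368 and 247.

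In the opposite direction, an intronic member of SEMA3A, a semaphorin, at chr7:84041623-84042338 was kept under C12 (164, from 812) but not under ORY-1001, and kept JUN (45, from 425). An intronic member of PCNX1 at chr14:71488425-71488912 kept JUN alone, with a score of 19 from 506. The highest-scoring members of the remaining patterns lay in FUT8, a fucosyltransferase gene (1151, kept under ORY-1001 with a score of 62), near HNF4G (2573, kept under C12 with a score of 33) and near RALYL (1555, lost throughout). All of these members were also called in both other FOXA2 ChIPs. The highest JUN score of any member, 2262, was in an intron of ZMIZ1, a transcriptional co-regulator gene, at chr10:80917398-80917650. That member had regions in 15 of the 22 lists, held JUN in NCI-H660 at 2303 under siNC and 1519 under siFOXA2, kept JUN in PC3 at 298, and had a vehicle FOXA2 score of only 296.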

How the data were processed

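ChIP-seq and ATAC-seq regions were used as deposited. Per the study's methods the authors sheared formaldehyde-fixed chromatin (ATAC-seq used transposase libraries), aligned reads with BWA 0.7.17-r1188 to hg19, and called regions with MACS2 2.1.4. The control library, the settings and any pooling were not given in the sources used here, so each list was treated as 1 library. The authors deposited a whole-number score in 20 of the 22 lists. Its range fits 10 times the −log10 q-value, which is an inference, and its minimum differed between lists. The lists hold no counts or coverage, so depth is unknown.

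Overlaps of at least 1 bp, motifs (100 bp on either side of the centre, GRCh37) and positions (GENCODE 44 for this build) were computed in python 3.11.15 with pandas 2.3.3 and pysam 0.24.0, and the code was tested on simulated data. Standardised shares average over score deciles. The members, gene lists and named-gene rule were chosen with earlier results of these data known. Named were the 12 genes with most members within 50 kb of a start, up to 4 genes per list, 10 genes the study tested, the highest-scoring member of each combination of treated lists, the 6 sequences (1 chromosome left out), the members at the edge of the overlap rule, the highest JUN score and the longest run. VDAC2 and COBLL1 are the highest-scoring members with both motifs in the kept and lost combinations. Alternatives covered overlap, score, shared places, FOSL1 distance, list length, windows and motifs. Groups came from the labels, and no test was run.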

Additional observations from a re-analysis of the deposited data

How the results depend on the processing

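No paired analysis was possible because every contrast had 1 list per arm, and the labels give no replicate numbers that groups share. Of 93 values recomputed under alternatives, 60 stayed within the interval of the value reported (or, for the number of members, within 1.5 times), 33 moved and 0 reversed. The number of members stayed within 1.5 times under each of its 5 alternatives.

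An overlap of at least 50% of both regions left 6671 members and gave 41.0% kept under C12 (25.2 points over JUN-free regions), 6.58% with JUN under siFOXA2, 3.04% with H3K27ac, 9.40% accessible in NCI-H660, 2.22% with NCI-H660 JUN, 84.0% in both other FOXA2 ChIPs and 2.23% at promoters. A score of at least 50 in every scored list gave 7.24% with JUN under siFOXA2, 76.9% with H3K27ac, 39.6% with an AP-1 motif and 28.6% with both motifs. Members also in both other FOXA2 ChIPs held a forkhead motif in 75%. At equal numbers of the highest-scoring regions, 58.9% were kept under ORY-1001, 65.5% under C12 and 31.5% had JUN under siFOXA2.

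A window of 50 bp on either side gave 56.0% forkhead, 23.8% AP-1 and 12.6% both, and one of 250 bp gave 88.8%, 50.4% and 43.9%. The forkhead spelling TGTTTAC alone gave 17.9%, and promoters of 500 bp gave 2.1%. Without one or the other of the other FOXA2 ChIPs (PC3 replicate left out), the share found ranged from 97.1% to 98.3%, against 96.8% in both. The excess over JUN-free regions under ORY-1001 and C12 was 13.4 and 11.9 points at equal FOXA2 score. In alternatives chosen after seeing the data it was 9.71 and 14.6 at equal ATAC score, 4.57 and 8.51 at equal ATAC and FOXA2 scores together, and 20.7 and 19.5 at equal length. The cause of these moves was not tested. Unknown depth limits every loss reported here.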
